A study of Mus musculus with 4 samples.

Results

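The Hox genes encode homeodomain transcription factors that set position along the head-to-tail axis of the embryo, and in mammals they lie in 4 compact clusters, A to D. All protein-coding genes of build GRCm38 named Hoxa, Hoxb, Hoxc or Hoxd with a number were taken, 39 of the 21631 protein-coding genes on the 20 chromosomes analysed. TOP2B cleavage sites were assigned to a cluster when the summit of the peak lay between the first and the last base of its genes, and to its flanks when the summit lay within 100 kb on either side. Of 35539 peaks, 10 were in the clusters and 13 in the flanks.

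TOP2B, the topoisomerase II isoform that nerve cells keep after they stop dividing, passes one DNA duplex through a transient break in another while it stays covalently joined to the cut ends. The libraries were made from wild-type (labelled WT) cortical neurons of embryonic day 16 Swiss-Webster mice, dissociated and grown in culture. All of them, 2 of TOP2B immunoprecipitation (ChIP) and 2 of input DNA, came from cells given etoposide, a drug that keeps TOP2 from resealing its cuts, at 50 µM for 30 min, so no untreated group exists. The file analysed was 1 peak list that the authors pooled over libraries. No value therefore has a replicate error, intervals cover counting error only, and the cell type could not be checked against marker genes because no expression was measured. The labels do not say whether the libraries came from separate cultures.

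Genes of one cluster are read mostly in the same direction and lie in the order in which they are used from hindbrain to tail. Low-numbered (3′) genes pattern the hindbrain, and high-numbered (5′) genes pattern the lower spinal cord, limb ends and genitalia. Hox genes are classically silent in the forebrain, including cortex, where Polycomb repressor complexes cover the clusters.

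Each of the clusters carried 2 or 3 summits, and the density in them did not differ from that of the flanks beyond counting error. Cluster A (chromosome 6, 105.5 kb, 11 genes) held 3, at 28.4 per Mb (95% Poisson interval 5.86 to 83.1). Cluster B (chromosome 11, 96194316 to 96368254, 173.9 kb, 10 genes) held 2, at 11.5 per Mb (1.39 to 41.5). Cluster C (chromosome 15, 102921131 to 103036856, 115.7 kb, 9 genes) held 3, at 25.9 per Mb (5.35 to 75.8). Cluster D (chromosome 2, 74668225 to 74765142, 96.92 kb, 9 genes) held 2, at 20.6 per Mb (2.50 to 74.5). The 4 intervals all overlap.

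The flanks of cluster A held 1 summit, those of B 3, those of C 4 and those of D 5, each over 200 kb. Pooled, the clusters had 20.3 summits per Mb (9.74 to 37.4) and the flanks 16.2 (8.65 to 27.8). The ratio of cluster to flank density was 1.25, with an exact conditional binomial 95% interval of 0.491 to 3.09. A difference of up to about that size in either direction was not detectable with 23 summits. Without cluster A, which had 1 flank summit, the ratio was 0.905 (0.302 to 2.49), so its place above 1 rested on that cluster. The flank summits farthest out lay 88.9 kb from cluster D (fold 2.42) and 85.1 kb from B (2.76), and the nearest beyond the limit lay 112 kb from C (2.35) and 131.9 kb from A (2.56).

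**Figure D1:**
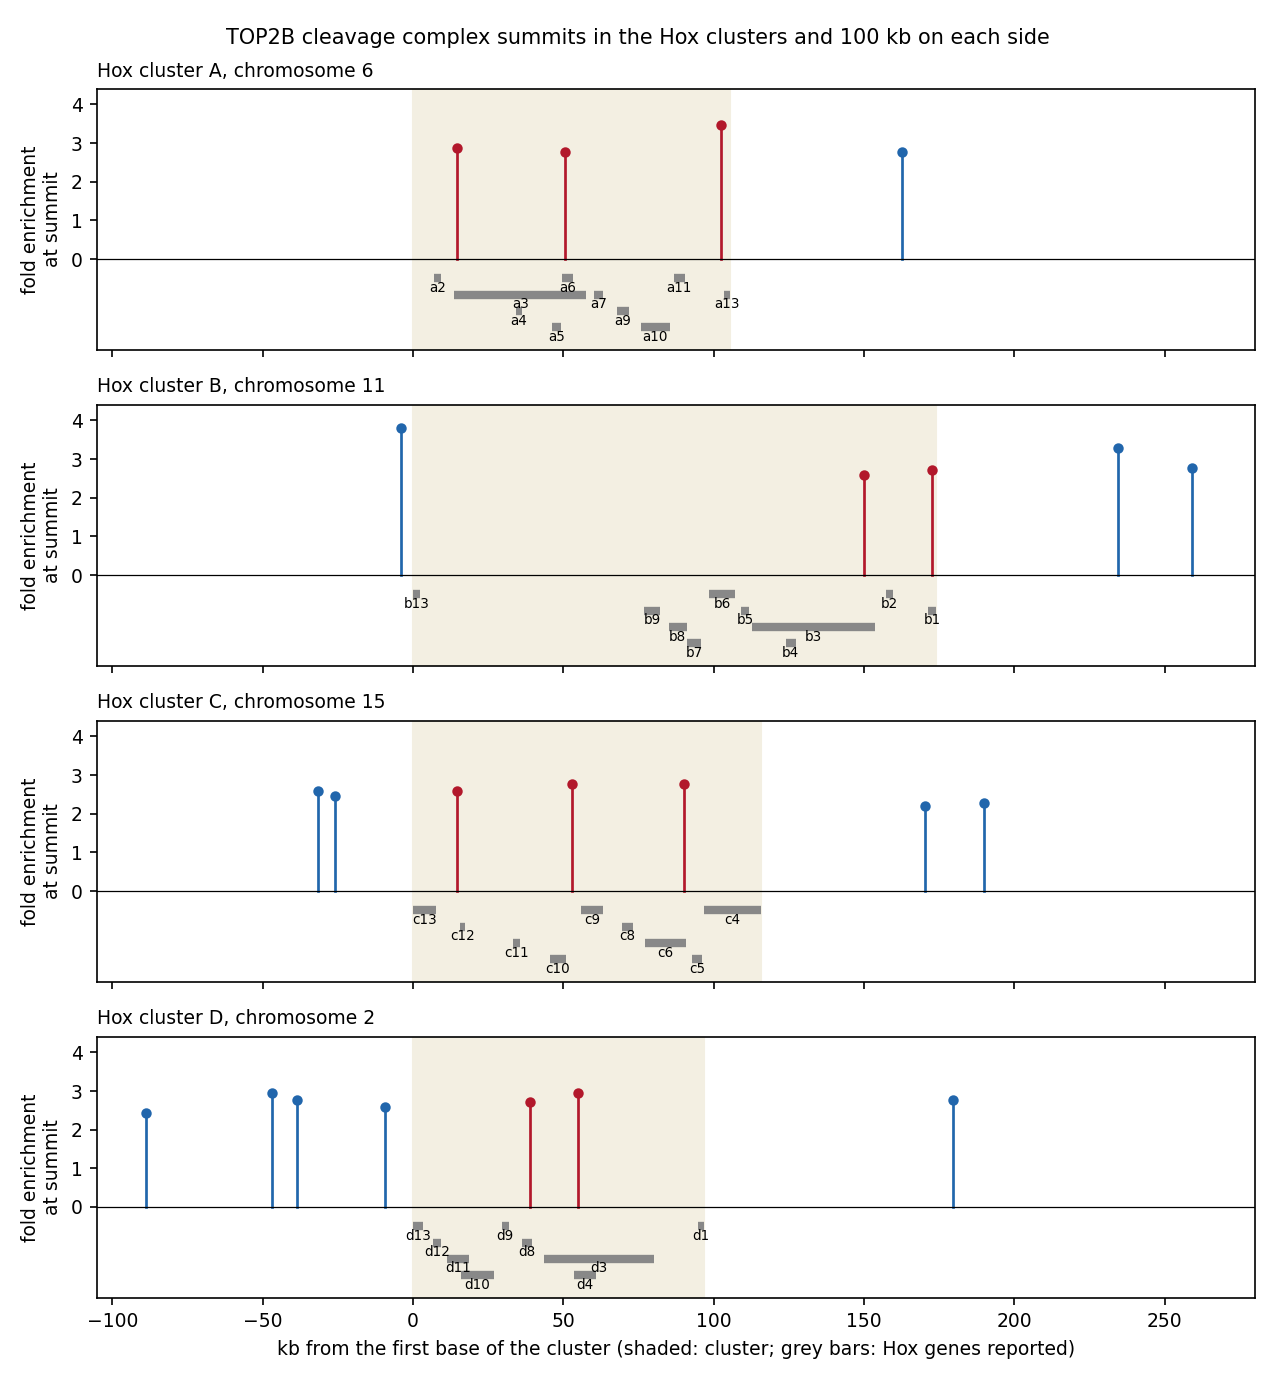
Fold enrichment at each summit (vertical axis) against distance in kb from the first base of each Hox cluster. Red stems are summits in the cluster, blue stems summits in the flanks of 100 kb, and grey bars are the Hox genes reported here, drawn to scale; the 10 red stems reach 2.59 to 3.46 and the 13 blue stems 2.20 to 3.80.

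The clusters were next set beside 100 kb windows, which are matched to them in neither length (96.92 to 173.9 kb) nor number of genes (9 to 11). Over the 20 chromosomes, 38.1% of 25565 windows of 100 kb held 2 or more summits, and the mean was 13.9 per Mb. Summits per window went up with the number of protein-coding gene starts in it, from 11.9 per Mb in windows without one to 24.7 per Mb in the 728 windows with 5 or more, of which 60.9% held 2 or more summits. The pooled Hox value of 20.3 per Mb lies between these, and its interval includes both 13.9 and 24.7. The rest of the same 4 chromosomes had 15.9 per Mb, and the ratio of the clusters to it was 1.28 (0.611 to 2.35).

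**Figure D2:**
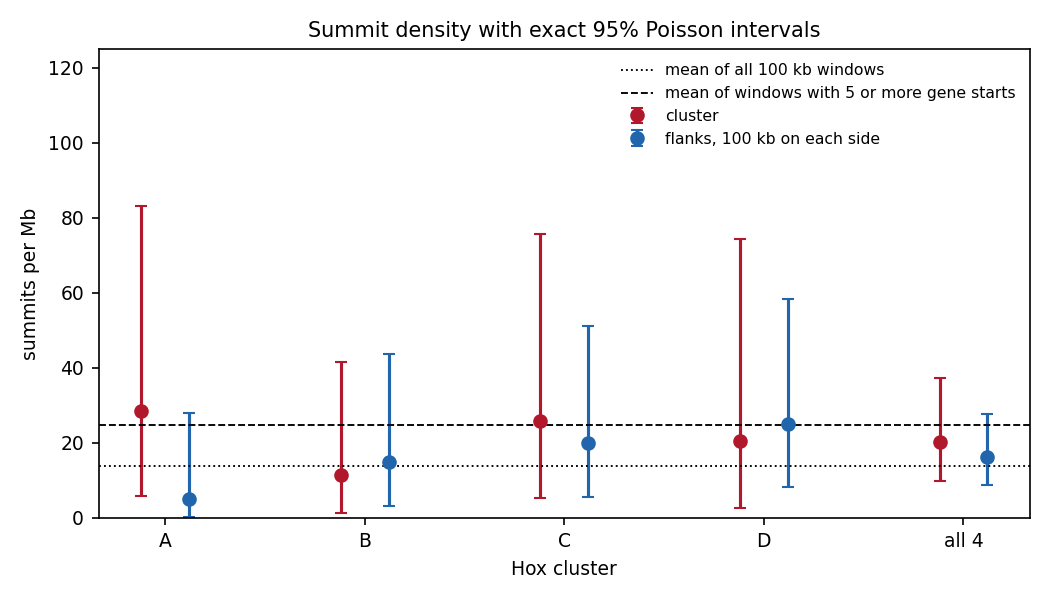
Summits per Mb (vertical axis) in each Hox cluster (red) and its flanks (blue), with exact 95% Poisson intervals, and both over all 4 clusters at the right. The dotted line is the mean of all 100 kb windows, 13.9 per Mb, and the dashed line that of windows with 5 or more protein-coding gene starts, 24.7 per Mb; all cluster intervals include both lines.

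Cleavage signal at the Hox summits was weak, with medians close to those of the whole list. That list reaches down to a −log10 p of 2.0 and a q of 0.776. Fold enrichment is the authors' ratio of ChIP to control at the summit. The number of ChIP fragments behind it was solved from the deposited fold and p. The formula used, that of the peak caller MACS2, adds 1 to both terms of the ratio. Over the 10 cluster summits, folds ran from 2.59 to 3.46 with a median of 2.76, against a median of 2.76 in the flanks and 2.77 in the whole list. Fragment numbers ran from 14 to 19 in the clusters and from 13 to 21 in the flanks, with medians of 15.5 and 15. The whole list also had a median of 15. At the most common control level of 4.78 fragments, 1 fragment more adds 0.173 to the fold, so neighbouring folds are 1 fragment apart. The 95% Poisson intervals of all 23 summits overlap: 14 fragments have 7.65 to 23.5, and 21 have 13 to 32.1.

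The control was close to the most common level at these loci. It was exactly at that level at 6 of 10 cluster summits (60.0%) and 8 of 13 flank summits (61.5%), against 71.1% of the list. At these 14 of 23 summits the fold depends on the number of ChIP fragments alone. The list does not show whether that level was measured at each locus. None of the 23 had a lower control, and the highest was 5.28 in the clusters and 7.11 in the flanks. Peaks were narrow, with median widths of 246 bp in the clusters, 210 bp in the flanks and 222 bp in the list.

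By the deposited q-value, 23.5% of the list had a q of 0.05 or less, against 1 of 10 cluster summits (10.0%) and 2 of 13 flank summits (15.4%). The cluster summit was the one beside Hoxa13, with a q of 0.0102. The flank summits were the one beside Hoxb13 (q 0.00162) and one at 60.5 kb from cluster B (q 0.0208). The other 9 cluster summits had a q of 0.0664 to 0.177, so each is weak evidence for a site taken alone.

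**Figure D3:**
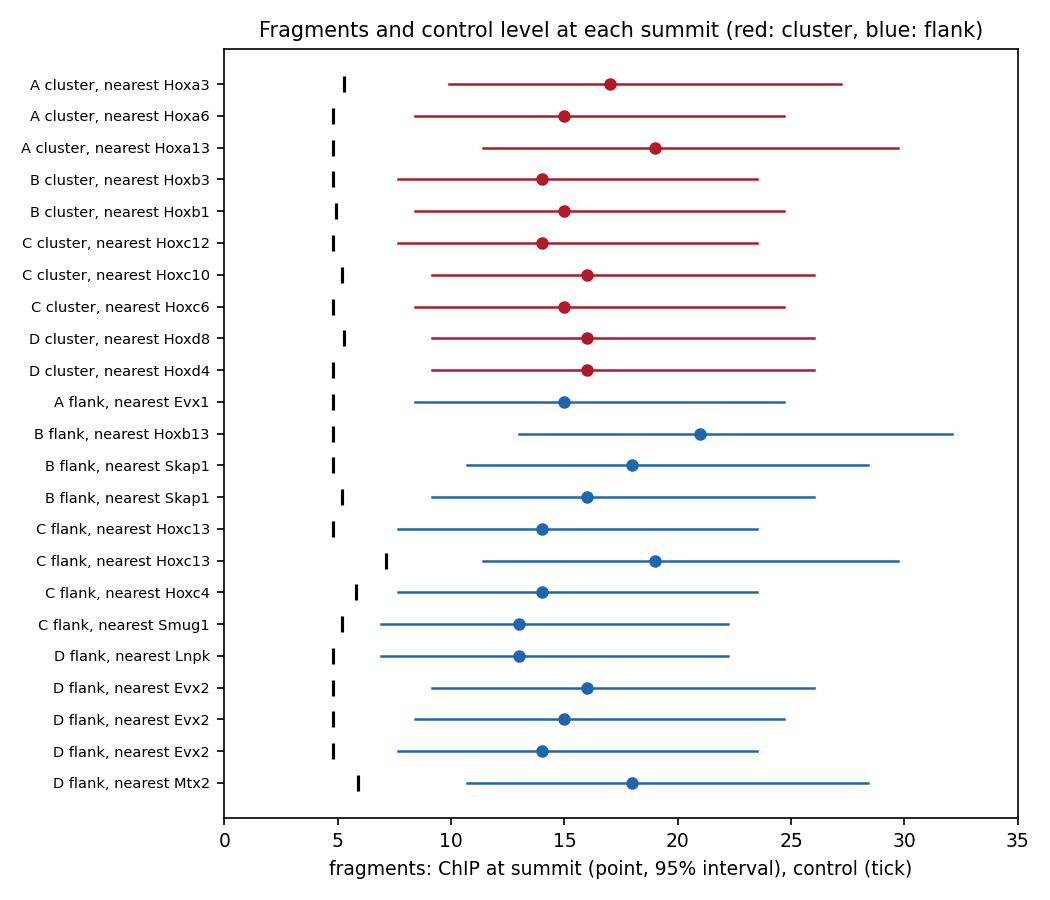
ChIP fragments at each of the 23 summits (points, horizontal axis) with 95% Poisson intervals, and the control level in fragments (black ticks), for clusters (red) and flanks (blue). Labels give the protein-coding gene with the nearest end. Points lie between 13 and 21 fragments, control levels between 4.78 and 7.11, and all intervals overlap.

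The strongest cluster summit was at the 5′ edge of cluster A, beside Hoxa13, a gene of distal limb and urogenital development. Its peak spanned chromosome 6 from 52257596 to 52257892 with the summit at 52257774, outside any listed gene and 1079 bp beyond the 3′ end of Hoxa13. It had a fold of 3.46, with 19 fragments (11.4 to 29.7) over a control of 4.78. In the list, 94.2% of peaks had a lower fold and 96.9% a lower or equal one.

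The other summits of cluster A lay inside Hoxa3, a gene of pharyngeal arch and hindbrain patterning whose 44.0 kb in RefSeq span several neighbours. The first, at 52170185, was 1126 bp inside the 3′ end of Hoxa3, with a fold of 2.87 and 17 fragments over a control of 5.28. The other, at 52206024, was also inside Hoxa6, 1166 bp from its 3′ end, and inside the antisense transcript Hoxaas3. It lay 1437 bp upstream of Hoxa5, had 15 fragments and a fold of 2.77. Its position does not assign it to one of these overlapping genes, so it counts for both Hox genes. Hoxa2, Hoxa4, Hoxa5, Hoxa7, Hoxa9, Hoxa10, Hoxa11 and Hoxa13 had none in the gene or within 1 kb of its ends.

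In cluster B both summits were at the 3′ side. Hoxb1, a gene of hindbrain segment identity, held one at 96366786, 1040 bp inside its lower end, with a fold of 2.71 and 15 fragments over a control of 4.91. Hoxb3 held the other at 96344270, which also lies in the antisense transcript Hoxb3os, with a fold of 2.59 and 14 fragments. From there to the summit at 96190250, which lies 4066 bp outside Hoxb13, 154 kb held none. Hoxb13, Hoxb9, Hoxb8, Hoxb7, Hoxb6, Hoxb5 and Hoxb4 lie wholly in this stretch. Hoxb2, between the cluster summits, was also without one.

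Cluster C summits were spread along it. The first, at 102935924, was outside genes, 902 bp below the lower end of Hoxc12, with a fold of 2.59 and 14 fragments. The second, at 102973957, lay between Hoxc10 and Hoxc9, genes expressed in lumbar and thoracic spinal cord, 2059 bp from Hoxc10 and 3075 bp from Hoxc9, with a fold of 2.76 and 16 fragments over a control of 5.17. The third was inside Hoxc6, a gene of forelimb-level spinal cord, at 103011391 and 491 bp from its upper end, with a fold of 2.77 and 15 fragments. Hoxc13, Hoxc11, Hoxc10, Hoxc9, Hoxc8, Hoxc5 and Hoxc4 had none in the gene or its windows.

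In cluster D, Hoxd8 held a summit at 74707242, 691 bp from its 3′ end and also inside the noncoding gene Gm38462, with a fold of 2.71 and 16 fragments over a control of 5.28. The next, at 74723187, lay in both Hoxd4 and Hoxd3, 1209 bp downstream of the lower end of Hoxd4, with a fold of 2.94 and 16 fragments over 4.78. Hoxd13, Hoxd12, Hoxd11, Hoxd10 and Hoxd9, which act in limbs and lower spinal cord, had no summit in gene or windows, nor did Hoxd1.

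Counted by gene, 3 of 39 Hox genes (7.69%) had a summit within 1 kb of either end, near the 8.30% of all protein-coding genes. Within 2 kb of an end the count was 9 of 39 (23.1%), against 15.1% of all. Summits in the gene or within 1 kb were found for 9 of 39 (23.1%), against 38.6% of all protein-coding genes, many of which are far longer, and 29.7% of the 13903 that are between 1784 bp and 44.0 kb, the range of the Hox genes. The Hox genes had a median length of 3.74 kb, and the upper limit of that range is Hoxa3 alone. Lengths within the range were not matched, and no difference was tested. These 9 genes shared 8 summits, and 30 Hox genes had none.

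By paralogue number, 4 of 8 genes numbered 1 to 3 (50.0%) had a summit in gene or windows. So did 4 of 15 numbered 4 to 8 (26.7%) and 1 of 16 numbered 9 to 13 (6.25%), beside 38.6% of all protein-coding genes. The groups share summits: the one at 52206024 counts for Hoxa3 and Hoxa6, and the one at 74723187 for Hoxd3 and Hoxd4. For end summits within 2 kb the shares were 25.0%, 33.3% and 12.5%, against 15.1% of all. Hoxa3, Hoxb3 and Hoxd3, 3 of the 4 counted among genes numbered 1 to 3, are 44009, 40830 and 36279 bp long. They are the longest of the family in this annotation. The grouping was made after the values were seen, and the difference was not tested.

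Most cluster summits lay within 2 kb of a gene end. Distances to the nearest end of a protein-coding gene ran from 491 bp at Hoxc6 to 3660 bp at Hoxb3. The median distance was 1.1 kb in the clusters, 23.4 kb in the flanks and 32.1 kb in the list. Gene ends are denser in the clusters than in the flanks, and no difference in distance was tested. Of the 13 flank summits, 2 (15.4%) lay within 2 kb of an end, against 7.01% of flank bases and 8.95% of the list. Within 2 kb of an end lay 8 of 10 cluster summits (80.0%), while 48.4% of the clusters' bases lie that near. Within 1 kb lay 3 (30.0%), close to the 28.7% of bases. The other 5 of these 8 were between 1040 and 1209 bp from an end, at Hoxb1, Hoxa13, Hoxa3, Hoxa6 and Hoxd4. Between 1 and 1.25 kb from an end lie 6.19% of cluster bases, and 0 of 13 flank summits and 1.05% of the list fell there. This band was not planned, and a preferred distance was not tested. The strand of the nearest gene was known for 6 summits: for 4 the near end was the 3′ end and for 2 the start. Inside a protein-coding gene lay 7 of 10 cluster summits (70.0%) against 56.6% of cluster bases, and 4 of 13 flank summits (30.8%) against 16.9% of flank bases, with 49.5% of summits in the list.

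**Figure D4:**
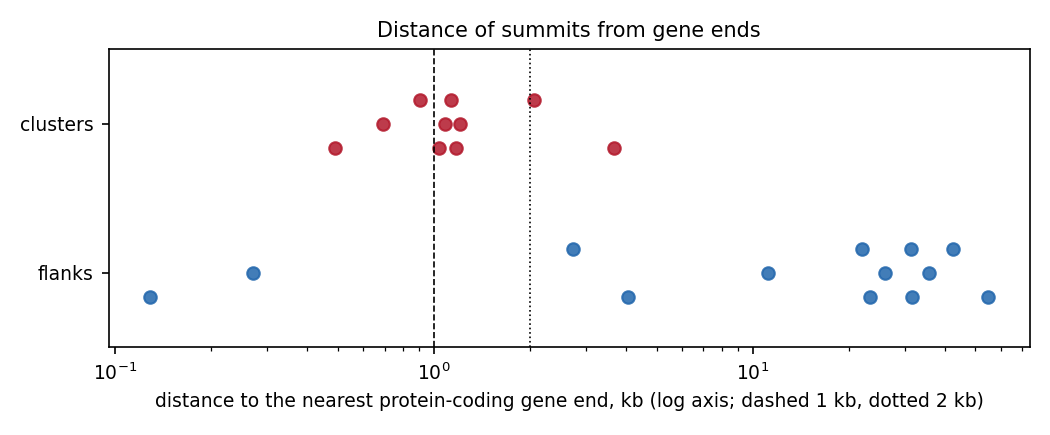
Distance in kb from each summit to the nearest end of a protein-coding gene (horizontal log axis) for the clusters (red, 10 points) and the flanks (blue, 13 points); vertical offsets only separate points. The dashed line is 1 kb and the dotted line 2 kb; 5 cluster summits lie just right of the dashed line and 11 flank summits right of the dotted line.

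Gene starts were examined in the RefSeq promoter table of GRCm38.p6, which covers 250 bases before to 50 after a start and lists 24 promoters of 22 Hox genes. No peak interval overlapped any of these 24, nor any of the 57 promoters listed in clusters and flanks, where 1.23% of all listed promoters were overlapped. Flank summits did lie near listed starts outside the Hox genes. One was 285 bp from a start of 4930445N08Rik and 381 bp from that of Lnpk, and another was 776 bp from that of Evx2. Hoxb1 and Hoxd4 are shown because they are the Hox genes with the summit nearest to a listed start, 1028 and 1209 bp downstream of it. Both are on the plus strand and are written 5′ to 3′, chr11:96365508-96365807 for Hoxb1 and chr2:74721728-74722027 for Hoxd4, with motif matches in capitals.
Hoxb1: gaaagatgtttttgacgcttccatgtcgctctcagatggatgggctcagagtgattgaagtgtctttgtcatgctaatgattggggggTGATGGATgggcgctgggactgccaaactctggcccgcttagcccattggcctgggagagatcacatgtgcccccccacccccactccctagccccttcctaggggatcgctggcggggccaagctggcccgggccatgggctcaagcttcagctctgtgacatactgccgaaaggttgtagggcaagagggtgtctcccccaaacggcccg
Hoxd4: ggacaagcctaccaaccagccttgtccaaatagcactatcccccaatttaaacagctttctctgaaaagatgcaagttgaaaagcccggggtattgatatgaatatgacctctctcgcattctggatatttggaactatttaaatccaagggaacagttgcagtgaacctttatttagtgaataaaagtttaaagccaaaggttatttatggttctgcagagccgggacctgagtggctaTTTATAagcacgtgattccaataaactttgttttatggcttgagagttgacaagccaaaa

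The motifs searched on both strands were TGATNNAT, bound by HOX proteins with their PBX partners, TATAAA, and the core motif of the insulator protein CTCF. Hoxb1 has TGATGGAT on the plus strand, 162 bp upstream of its start, and Hoxd4 has TATAAA on the minus strand, 10 bp upstream. TGATNNAT was in 4 of 24 Hox promoters (16.7%) against 8.85% of all 32841 listed, and TATAAA in 4 (16.7%) against 13.6%. The CTCF core was in 0 of 24, against 0.557% of all. The Hox promoters had a median of 14.5 CpG against 7 in all, with 10 in Hoxb1 and 4 in Hoxd4. None of these matches lies under a peak.

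The clusters also hold microRNA genes, which repress transcripts that pair with their seed, including Hox transcripts. RefSeq lists 6, and 1 of them, Mir196a-2 between Hoxc10 and Hoxc9, had a summit within 1 kb, against 5.70% of 1228 microRNA genes. That summit is the one at 102973957, 523 bp above the gene (chromosome 15, 102973350 to 102973434). Mir10b, inside Hoxd4 and Hoxd3, was 2.88 kb from its nearest summit and Mir615, in Hoxc5, 3.52 kb. Mir196b was 24.1 kb away, Mir10a 27.0 kb and Mir196a-1, in the empty stretch of cluster B, 74.9 kb. The mature 5p strands of both families are shown because copies of near-identical sequence sit at different distances from a summit, with the seed (bases 2 to 8) in capitals.
mmu-miR-196a-5p: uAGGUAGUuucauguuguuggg
mmu-miR-196b-5p: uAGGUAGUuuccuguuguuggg
mmu-miR-10a-5p: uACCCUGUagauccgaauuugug
mmu-miR-10b-5p: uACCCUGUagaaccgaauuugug

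Within each family the seed is the same. Counted from the 5′ end, miR-196a and miR-196b differ by A12C, and miR-10a and miR-10b by U12A. Mir196a-1 in cluster B and Mir196a-2 in cluster C give the same 5p sequence, and their distances to a summit were 74914 and 523 bp. The summit near Mir196a-2 had a q of 0.0884, and a link between mature sequence and cleavage was not tested. Of 25 long noncoding RNA genes in the clusters, 3 (12%) held a summit, against 18.8% of all 12697, whose lengths were not matched. They were Hoxaas3, Hoxb3os and Gm38462, each beside or over a Hox gene named above. Hotair, which lies among the Hoxc genes, was 8.14 kb from its nearest summit.

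In the flanks, 8 of 13 summits (61.5%) were in no listed gene, against 69.9% of flank bases and 42.8% of summits in the list. The highest fold of all 23 was in the lower flank of cluster B at 96190250, 4.07 kb outside Hoxb13, with a fold of 3.80 and 21 fragments, and 98.8% of the list had a lower fold. Further out, a summit at 96428792 had a fold of 3.29 and 18 fragments, 35.8 kb from Skap1, an adaptor gene of T cells. Another at 96453360, in the noncoding gene Gm11529, had a fold of 2.76.

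Even-skipped homeobox genes sit next to clusters A and D and belong to the same ancestral array. Evx1 held a summit at 52318118, 271 bp inside its upper end and 57.2 kb from cluster A, with a fold of 2.77. Evx2 held one at 74658781, 9.44 kb from Hoxd13, with a fold of 2.59 and 14 fragments. The lower flank of cluster D, toward Lnpk, is known to hold limb enhancers. It had 4 summits, the Evx2 one among them, and the upper flank 1. The others below were at 74629596 (fold 2.77) and at 74621457 (2.94), both with Evx2 as the nearest protein-coding gene, and at 74579329 (2.42). The summit at 74579329 is 129 bp inside an end of Lnpk and also in the noncoding gene 4930445N08Rik. Above cluster D, Mtx2, a mitochondrial import gene, held a summit at 74847923 with a fold of 2.76 and 18 fragments over a control of 5.89.

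The lowest folds of the 23 were in the flank above cluster C. Those summits, at 103091508 and 103110920, had folds of 2.20 and 2.27, and 4.45% and 9.03% of the list was lower. The nearest protein-coding gene ends were those of Hoxc4, at 54.7 kb, and of Smug1, a DNA repair gene that removes uracil, at 42.4 kb. Listed starts of Gm28876, not among the protein-coding genes, lay nearer, 9.16 kb from 103091508 and 6.52 kb from 103110920. Below Hoxc13, a gene of hair and nail formation, the summit at 102895153 had a fold of 2.47 with 19 fragments over 7.11, the highest control of the 23. The last, at 102889440, had a fold of 2.59.

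Genes that work with or on the Hox clusters were counted by the same rule, beside 8.30% of all protein-coding genes with an end summit and 38.6% with one in gene or windows. Of 9 HOX cofactor genes, whose PBX, MEIS and PKNOX proteins bind DNA with HOX proteins, 2 had an end summit (Meis1 and Meis2, both fold 2.59) and 6 (66.7%) a summit in gene or windows. Meis1 and Meis2 are 139 and 206 kb long. Of 25 Polycomb genes, 3 (12%) had an end summit: Cbx8 (fold 2.94), Pcgf6 (2.77) and Jarid2 (2.17). In gene or windows, 15 Polycomb genes (60.0%) had one. Gene lengths were not matched for any of these lists, and Jarid2, for example, is 191 kb long. Of 9 Trithorax genes, which counter Polycomb at Hox genes, 2 had an end summit, Ash2l (3.29) and Wdr5 (2.64), and 5 had one in gene or windows.

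Homeobox genes outside the clusters were counted in 2 lists. Of 13 ParaHox and Hox-linked genes, 2 had an end summit, Evx1 (2.77) and the intestinal gene Cdx2 (2.59), and 3 (23.1%) a summit in gene or windows. Of 21 forebrain homeobox genes, which unlike Hox genes act in the forebrain or its precursors, 1 had an end summit, Vax1 (2.77), and 7 (33.3%) a summit in gene or windows. The Hox share of 23.1% stands beside these as a description. Gene lengths were not matched, and no difference between lists was tested.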

How the data were processed

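Per the submitters' processing notes, FastQC, Trimmomatic, BWA, SAMtools and MACS2 were used, with builds mm10 and GRCm38.p6. For versions, caller settings and duplicate handling the sources used here give nothing. The deposited file is a narrowPeak list without a header, pooled by the authors over libraries. Column order identifies the deposited fold enrichment, a linear ratio, and the deposited −log10 p-value and −log10 q-value. Library depth is unknown. Peak starts were turned into 1-based positions.

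Pileup and control were solved from fold and p by the formulas of MACS2, within 0.002 of −log10 p, uniquely for 35536 peaks (99.99%) and for all 23 summits described. Genes came from a RefSeq table of GRCm38.p6 (C57BL/6J, not the strain used), which gives neither strand nor exons, and strands came from the promoter table. Gene ends had windows of 1 kb. Density ratios carry exact conditional binomial 95% intervals. Gene lists are given as counts beside all protein-coding genes, without a test. Alternatives were stricter peaks, merged entries, interval overlap, other flanks and windows, wider clusters, and each cluster left out. Named genes are every Hox gene with or next to a cluster summit, every gene holding a flank summit and the protein-coding gene with the end nearest to one. Per list, at most 3 members were named, by end fold. Some others were named after their values were seen. Members and lists were chosen with earlier results of these data known. Scripts (Python 3.11.15, SciPy 1.17.1) were tested on simulated data. Exons, introns and sequence under the peaks were not analysed here. A gene of cluster A is counted but not reported here by name.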

Additional observations from a re-analysis of the deposited data

How the results depend on the processing

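The ratio of cluster to flank density was recomputed under 15 alternatives. It ran from 0.813 (q of 0.05 or less, 1 cluster and 2 flank summits) to 1.63 (fold at or above the median), was above 1 in 13 of them, and its interval included 1 in all 15. The alternatives share summits and are not independent checks. Merging entries, counting interval overlap and leaving out peaks with high control each returned the main counts, 10 and 13, and the ratio of 1.25. With clusters widened by 10 kb on each side, the flank summits beside Hoxb13 and in Evx2 counted as cluster summits. The counts were then 12 and 11, and the ratio was 1.53 (0.616 to 3.82). The count of Hox genes with an end summit, 3 at 1 kb, moved with the window and the peak rule. It was 1 with a window of 500 bp (2.56%, against 4.54% of all protein-coding genes), 9 with 2 kb (23.1% against 15.1%) and 15 with 5 kb (38.5% against 29.4%). It was 6 when any overlap of the interval counted (15.4% against 9.2%), 1 with folds at or above the median (2.56% against 4.67%) and 0 with a q of 0.05 or less (against 2.1%). The count in gene or windows, 9, was 15 with windows of 5 kb (38.5% against 46.0%), 5 with folds at or above the median (12.8% against 26.5%) and 0 with a q of 0.05 or less (against 14.9%). The other counts were within 1.5 times, and the ratio of median folds stayed between 0.976 and 1.03. With windows of 200 kb, 30.7% had 4 or more summits. No paired analysis was possible because the list was pooled over libraries, and no library could be left out. The number of summits limits every comparison here.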
